A study of Mus musculus with 21 samples.

Results

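The regions described here are 1187 windows of 100 kb on the mouse autosomes in which the DNA kept on nucleosomes in sperm was only partly methylated at isolated CpGs. They were chosen from 23672 windows that had at least 300 reads on such CpGs. An isolated, or CpG-sparse, CpG is one for which the 100 bp before and after it contain no more than 5 CpGs of the table, counting the CpG itself. It was used only where it had at most 19 reads. A window belongs to the set when the methylated reads made up under 78% of all reads on these CpGs, and 5.01% of the tested windows did. The level of these CpGs therefore chose the windows and is given below as a description, without a test. The number of CpGs, the neighbours and the level of CpG-dense CpGs were not part of the rule. Coverage entered it through the limits on reads, and low-methylated stretches are not independent of it, because CpG-sparse reads inside them count towards the level (9.59% of such reads in the partially methylated windows).

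The series concerns which nucleosomes are kept in mouse sperm, and it holds 21 samples of sperm and round spermatids. The library used here is the bisulfite library of nucleosome-associated DNA from sperm of strain C57BL/6, isolated by letting the motile cells swim up. Micrococcal nuclease had cut the chromatin into mononucleosomes, so the reads come from DNA that was still wrapped around histones and not from all sperm DNA. Bisulfite changes unmethylated cytosine so that it is read as thymine. The other 20 samples were not analysed here, the number of mice behind the library is not given in the sources used here, and with 1 library no comparison between samples and no test were possible.

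Methylation of cytosine in CpG dinucleotides is copied at each cell division and removed and rebuilt during germ cell development. In mature sperm most CpGs that stand alone are methylated, whereas CpG islands, the CpG-rich stretches at many promoters, are mostly free of it. Methylation is set in the male germ line before birth, and in other cell types long domains that keep an intermediate level are known from gene-poor DNA. Most histones of sperm are replaced by protamines, and the nucleosomes that remain are known to be enriched at CpG-rich DNA without methylation.

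The windows were divided into 2 kinds by their level outside low-methylated stretches. In 300 of them (1.27% of all tested windows), called broad here, the level stayed under 78% after all low-methylated stretches, 1 kb on each side of them, and all 5 kb segments with a level under 50% were set aside. In the other 887 (3.75%), called stretch windows, the level rose to 78% or over once these were removed. A low-methylated stretch consists of 4 or more successive CpGs covered by 5 or more reads, no more than 500 bp apart, where the mean of every 3 stays under 50%. As a group the windows were not poor in CpGs under this rule: a partially methylated window held a median of 850 listed CpGs (95% interval of the median 801 to 907) and another window 564 (556 to 572). This turned when windows were chosen only on CpGs with at most 2 listed CpGs within 100 bp, where the 591 chosen windows had a median of 322 and the others 580. The number of broad windows also depended on the limits, being 92 with a limit of 75% and 37 with at least 1000 reads per window.

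Promoter sequences of RefSeq (GRCm38.p6) could be placed in the library by the spacing of their CpGs, and 5 of them show the range found. Each is the 250 bases before a gene's start, 5′ to 3′ on the gene's strand, with each CG, the site that can be methylated, in capitals. The first comes from the window with the lowest level of all and the second from the longest run of windows on chromosome 7. The windows of the first and of the other 3 count as broad, and that of the second is a stretch window. CG was the motif searched, which reads the same on both strands, and 92.4% of the 31396 autosomal promoter sequences hold at least 1 in these 250 bases, with a median of 6.
Hoxd13: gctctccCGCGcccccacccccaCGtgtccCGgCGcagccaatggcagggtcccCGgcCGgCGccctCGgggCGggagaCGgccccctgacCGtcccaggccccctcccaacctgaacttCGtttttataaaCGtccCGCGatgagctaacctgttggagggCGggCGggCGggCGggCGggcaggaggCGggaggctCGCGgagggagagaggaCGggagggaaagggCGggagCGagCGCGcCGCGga
Ndn: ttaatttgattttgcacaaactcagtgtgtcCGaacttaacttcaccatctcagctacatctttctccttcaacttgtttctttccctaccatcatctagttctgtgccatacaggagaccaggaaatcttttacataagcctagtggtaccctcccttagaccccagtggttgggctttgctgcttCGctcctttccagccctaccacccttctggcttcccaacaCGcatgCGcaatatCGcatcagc
Rnf212: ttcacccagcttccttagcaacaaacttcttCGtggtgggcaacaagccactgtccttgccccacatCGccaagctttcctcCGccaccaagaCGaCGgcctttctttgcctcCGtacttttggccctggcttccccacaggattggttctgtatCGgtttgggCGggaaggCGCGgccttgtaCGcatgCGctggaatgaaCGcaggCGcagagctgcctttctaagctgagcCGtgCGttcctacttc
Nlrp4c: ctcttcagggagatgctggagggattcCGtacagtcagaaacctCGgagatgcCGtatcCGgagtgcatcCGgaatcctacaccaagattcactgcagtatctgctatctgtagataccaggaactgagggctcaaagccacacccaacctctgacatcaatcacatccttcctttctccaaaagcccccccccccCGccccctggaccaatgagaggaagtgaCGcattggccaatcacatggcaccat
Gm38744: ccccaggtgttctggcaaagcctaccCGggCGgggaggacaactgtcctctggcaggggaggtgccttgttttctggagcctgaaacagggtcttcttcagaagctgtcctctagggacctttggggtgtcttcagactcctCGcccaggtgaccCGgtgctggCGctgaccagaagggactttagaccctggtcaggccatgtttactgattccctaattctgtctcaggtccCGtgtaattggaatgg

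The bases shown for Hoxd13, a homeodomain factor that patterns limbs and the posterior body axis, hold 31 CGs and lie on mm9 chr2:74506032-74506281, plus strand. Of 79 reads on them 6.33% were methylated (Wilson interval 2.73 to 13.98). The bases of Ndn, an imprinted gene active from the paternal copy, hold 5 CGs on chr7:69492913-69493162, plus strand, and 14.6% of 41 reads were methylated (6.88 to 28.4). The bases of Rnf212, a gene needed for crossing over in meiosis, hold 16 CGs on chr5:109204047-109204296, minus strand, and 52.1% of 73 reads were methylated (40.8 to 63.1). All 8 of its CpGs with at least 5 reads lay between 20% and 80%, so the intermediate level was seen at single CpGs. Nlrp4c, of the Nlrp family of NLR proteins, had 7 CGs on chr7:5996513-5996762, plus strand, and 42.1% of 19 reads (23.1 to 63.7). Gm38744, a predicted gene, had 6 CGs on chr5:146645938-146646187, plus strand, and 95.7% of 23 reads (79.0 to 99.2). These 5 were picked to show the range. Of all 43 genes with a placed promoter in broad windows, 34 had a promoter level under 20%, many of them in windows of Hox genes.

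The library lists 15544856 CpGs with 60995624 reads on CpGs, a median of 3 reads per CpG. A tested window had from 300 to 5732 reads on its CpG-sparse CpGs, with a median of 1488. At the median read number of windows with 500 to under 750 reads, 2 binomial standard errors at a level of 78% were 3.27 percentage points, and at that of windows with 2000 or more reads they were 1.70 points. Windows with few reads and a level near the limit can therefore cross it through counting error. Of the 407 windows with 300 to under 500 reads 9.34% were partially methylated. The share was 2.91% of the 4393 windows with 1000 to under 1500 reads and 6.92% of the 7279 with 2000 or more. The part of counting error in these shares was not tested. Intervals given with levels are 95% Wilson intervals that treat all reads as independent. They cover counting error only and are too narrow, because the CpGs of a read are linked and no molecular identifiers tell PCR copies apart.

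The level of the partially methylated windows, which the rule used, ranged from 27.3% to 77.998% with a median of 75.4% and quartiles of 72.7% and 77.0%, so most lay close to the limit. The median of the other windows was 86.5%, with quartiles of 84.1% and 88.6%. The 3 windows just inside the limit, on chr8:3900001-4000000, chr7:29000001-29100000 and chr4:120900001-121000000, were at 77.998%, 77.996% and 77.994%. The 3 just outside it, on chr2:163400001-163500000, chr5:73200001-73300000 and chr8:41300001-41400000, were at 78.002%, 78.006% and 78.008%. A difference of this size is far below the counting error of 1009 reads in the first of these windows.

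To see whether the low level belongs to the whole window or to the reads that chose it, each window was divided into alternating segments of 1 kb. When windows were chosen on the odd segments, 1405 windows were under 78%, at a pooled level of 73.7% there. Their even segments, which had no part in the choice, were at 76.2% (76.1 to 76.3), and those of all other windows at 86.3%. Of the chosen windows 54.1% were again under 78%, against 2.77% of the others. With segments of 10 kb, 34.9% of the chosen windows were again under 78%, against 4.77% of the others, and the level in the even segments was 79.3%, over the limit and below the 86.1% of the others. When only the DNA outside padded stretches was read, 412 windows were chosen at 75.3%, and their even segments had 78.2% (78.04 to 78.4), against 88.0% in the others. The level in CpGs that had no part in the choice was thus lower than in other windows, but many chosen windows were over the limit there, and more of them with longer segments. Even and odd segments of a window come from the same library, so this does not replace a replicate.

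Low-methylated stretches, which lower the level that chose the windows, covered 4.86% of their length and 0.924% of the length of other windows. The median was 3.99 kb per partially methylated window (3.61 to 4.48) and 0 kb per other window, of which 52.6% held no stretch. When windows were chosen only on CpGs with at most 2 listed CpGs within 100 bp, the median was 0 kb in both the 591 chosen and the other windows, and stretches covered 3.22% and 1.07% of their length. Stretch windows held a median of 5.66 kb (5.19 to 5.99) in 5 stretches, and 1.47% of them had none. Broad windows were the opposite: 242 of 300, or 80.7% (75.8 to 84.7), had no stretch at all. The split into the kinds used the stretches, so these last values describe the kinds and are not evidence for them.

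**Figure D1:**
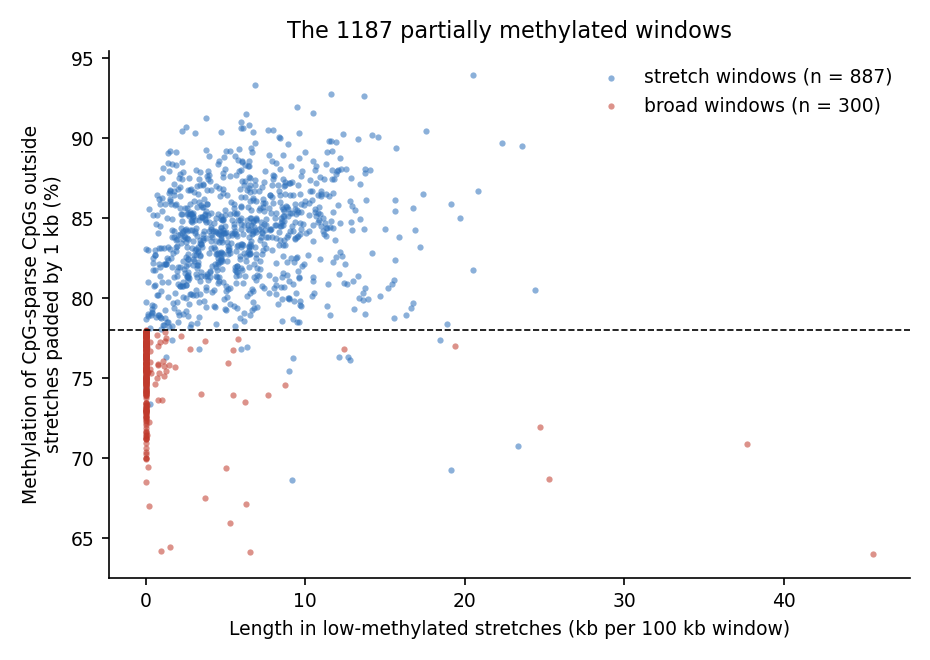
Each point is a partially methylated 100 kb window. The x axis gives its length in low-methylated stretches in kb, the y axis the methylation level in percent of its CpG-sparse CpGs outside stretches padded by 1 kb, and the dashed line 78%. Most of the 300 broad windows stand at 0 kb and under the line, whereas the 887 stretch windows reach up to 24.4 kb and nearly all lie above it; 28 stretch windows under the line rose over it only when 5 kb segments under 50% were also set aside.

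Outside the stretches the level was closer to that of other windows but did not reach it. The pooled level of all CpG-sparse CpGs was 73.7% in partially methylated and 86.3% in other windows. Without the stretches it was 79.7% (79.6 to 79.7) against 87.4%, and without the stretches and 1 kb on each side 82.5% (82.5 to 82.6) against 88.15%. In stretch windows the last value was 83.7%, still lower than in other windows, and in broad windows it was 75.2% (74.99 to 75.4). Reads inside stretches made up 10.4% of the CpG-sparse reads of stretch windows and 3.43% of those of broad windows.

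Within broad windows the intermediate level was spread over many 5 kb segments. Among 5407 segments of 5 kb with at least 10 reads outside padded stretches, 62.1% were at 70% to under 90% and 28.6% at 50% to under 70%. A further 7.43% were at 90% or over and 1.87% under 50%. In other windows 46.7% of segments were at 90% or over, 2.90% at 50% to under 70% and 0.137% under 50%, and in stretch windows 1.81% were under 50%. Broad windows had larger shares in both lower classes than other windows, and most of their lower segments were at 50% to under 70%. They were chosen for a low level on these same CpGs, so larger shares of low segments and low CpGs follow from the choice and are a description. A segment of 10 reads can also change class through counting error. Of CpGs with 5 to 19 reads outside padded stretches, 52.3% lay between 20% and 80% in broad windows, 33.7% in stretch windows and 26.96% in other windows. CpGs under 20% made up 2.53% in broad, 1.56% in stretch and 0.590% in other windows, and CpGs over 80% made up 45.1%, 64.7% and 72.4%. A CpG at 80% also gives values under 80% by chance at 5 reads, so the classes are compared between kinds of window and not read as fixed states.

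**Figure D2:**
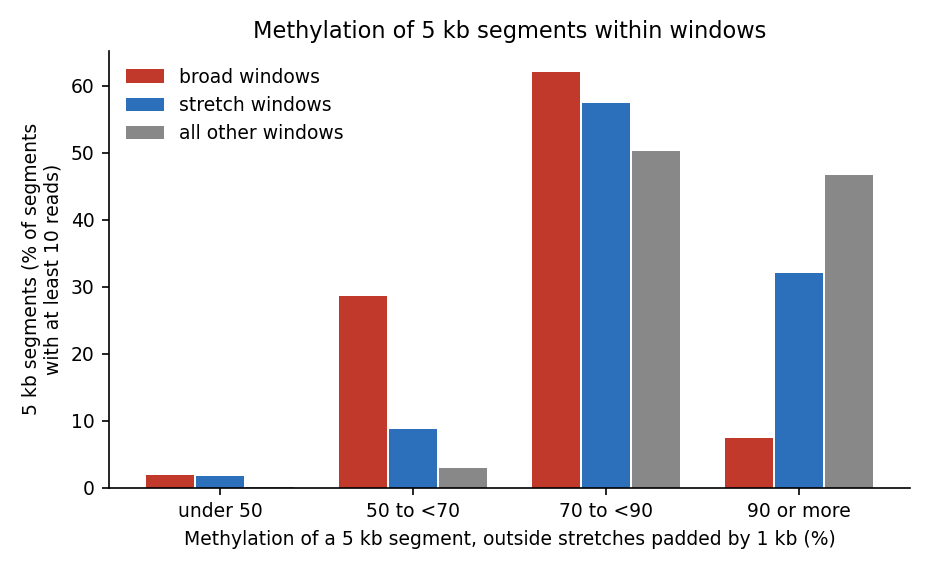
Bars give the percentage of 5 kb segments with at least 10 reads in each class of methylation level (x axis, percent), outside stretches padded by 1 kb, for 5407 segments of broad, 16657 of stretch and 437318 of other windows. Broad windows have most segments at 70% to under 90% and more at 50% to under 70% than the others; segments under 50% make up 1.87% in broad, 1.81% in stretch and 0.137% in other windows.

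In broad windows the level fell somewhat with read depth, which it did not in other windows. Outside padded stretches, CpGs of broad windows with 1 read had 76.7% (76.1 to 77.2), those with 2 to 4 reads 75.5% and those with 5 to 19 reads 74.4%. The same 3 classes gave 88.2%, 88.1% and 88.2% in other windows. In stretch windows they gave 83.5%, 83.5% and 84.1%. Broad windows were lower at each depth, but they were chosen for a low level on these same CpGs. The values are therefore a description, and the cause of the fall was not tested.

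CpG number separated the kinds. Broad windows had a median of 269 listed CpGs (263 to 279), with quartiles of 240 and 322, and stretch windows had 1051 (1002 to 1086), with quartiles of 702 and 1315. Of 247 windows with under 200 listed CpGs, 13.4% were partially methylated and 11.3% broad. The share fell to 2.24% at 600 to under 800 listed CpGs, of which 0.155% were broad. It rose again to 5.49% at 800 to under 1200 and 18.9% of 1650 windows with 1200 or more, nearly all of them stretch windows. The windows poorest in CpGs also have the fewest reads: the median was 442 reads for other windows with under 200 CpGs and 2666 from 1200 CpGs on. The part of the number of reads in the high share at low CpG number was not tested.

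**Figure D3:**
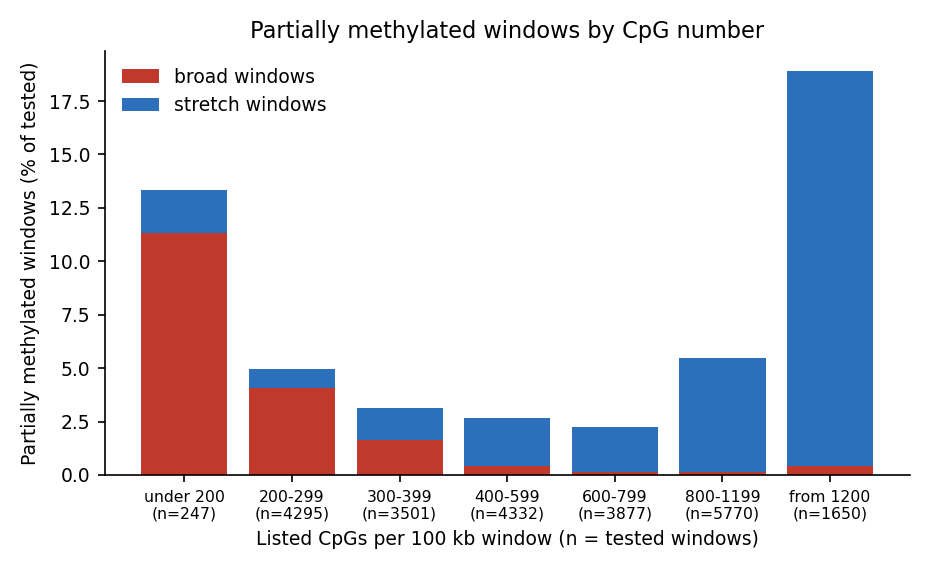
Stacked bars give the percentage of tested windows that were partially methylated (y axis), by number of listed CpGs per window (x axis, n = tested windows), divided into broad and stretch windows. The share is highest at both ends, 13.4% with under 200 CpGs, mainly broad windows, and 18.9% from 1200 CpGs on, mainly stretch windows.

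Broad windows were also compared with other windows of like CpG number. With 200 to under 400 listed CpGs there were 233 broad and 7473 other windows. CpGs with 1 or 2 listed CpGs within 100 bp were at 73.8% in the broad and 86.1% in the other windows, and CpGs with 3 to 5 at 77.6% and 86.5%. The rule fixes the direction of these levels, so they are a description. Coverage, which the rule limits but does not set, had a median of 2.66 reads per CpG-sparse CpG (2.62 to 2.69) in the broad windows. In the other windows it was 2.70 (2.70 to 2.71). Of the 233 broad windows, 175 had 200 to under 300 listed CpGs, where the medians were 2.626 in broad and 2.628 in other windows. At 300 to under 400 they were 2.792 and 2.790, so coverage was nearly equal in these narrower classes. No low stretch was found in 89.3% of the broad and 91.2% of the other windows.

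Coverage over all windows differed little. Partially methylated windows had a median of 3.07 reads per CpG-sparse CpG (3.04 to 3.08) and other windows 2.99 (2.98 to 2.99), a ratio of 1.03 (1.02 to 1.03). When only CpGs with at most 2 listed CpGs within 100 bp were used, the ratio was 0.946 (0.937 to 0.957), below 1. By kind, stretch windows had 3.13 reads and broad windows 2.69. CpGs with 15 or more listed CpGs within 100 bp had 5.46 reads on average in partially methylated and 5.36 in other windows. CpGs with more than 19 reads, which the rule leaves out, held 23.7% of all CpG reads of the partially methylated windows and 16.8% of those of the others. Single windows carried these shares: chr9:3000001-3100000 held 65.1% of such reads of the partially methylated windows, and without it their share was 9.82%, below the 16.8% of the others. Among other windows chr2:98500001-98600000 held 88.6% of such reads, and without it their share was 2.26%. Over all 300 broad windows such CpGs held 50.9% of the reads, but 8.81% without chr17:39900001-40000000 and chr11:3000001-3100000. CpGs above 19 reads occurred in 50 broad (16.7%), 274 stretch (30.9%) and 8.89% of other windows. The 5 windows with the largest share of such reads were chr9:3000001-3100000 (77.8%), chr17:39900001-40000000 (77.4%), chr11:3000001-3100000 (63.3%), chr4:3000001-3100000 (73.7%) and chr19:61200001-61300000 (73.5%), where the value in parentheses is the level of CpG-sparse CpGs. Of these, 3 are windows of the first listed 100 kb from position 3000001. Whether reads from repeated DNA are placed there was not tested.

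CpG-dense CpGs, which the rule did not use, were less methylated as well. Their level is not independent of the rule, because low-methylated stretches can hold both CpG-dense and CpG-sparse CpGs. CpGs with 6 or more listed CpGs within 100 bp and at most 19 reads had a pooled level of 22.9% (22.9 to 23.0) in partially methylated and 43.9% in other windows. With CpG-sparse CpGs limited to at most 2 listed CpGs within 100 bp, the remaining CpGs were at 42.6% and 67.6%, and without a limit on reads per CpG the values were 34.9% and 43.3%. At 6 to 9 CpGs the levels were 45.8% and 72.9%, at 10 to 14 they were 16.5% and 32.2%, and at 15 or more 3.66% and 3.204%. The difference lay at intermediate CpG density, whereas at the highest density both kinds of window were almost free of methylation. In broad windows CpGs with 6 to 9 were at 53.6% and in stretch windows at 45.3%. CpGs with 6 or more made up 37.1% of listed CpGs with at most 19 reads in partially methylated and 19.4% in other windows.

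Partially methylated windows lay next to each other. Of the 1187 windows, 503 (42.4%, 39.6 to 45.2) had a partially methylated neighbour, where 5.01% of all tested windows are partially methylated and 6.96% of other windows had such a neighbour. The share was 72.3% (67.0 to 77.1) in broad and 32.2% (29.3 to 35.4) in stretch windows, and 103 broad windows had partially methylated windows on both sides. The intervals of these shares treat windows as independent. Each window of an adjacent pair counts the other, so the intervals are too narrow. Of 458 tested windows next to a broad window 49.8% were partially methylated, as were 30.4% of those at 5 windows' distance and 23.1% of those at 10, that is 1000 kb. Around stretch windows the share fell from 17.8% next to them to 9.25% at 10 windows. Neighbours over the limit were lower too: next to a broad window their median was 81.4% and next to a stretch window 84.8%, against 86.5% for all windows over the limit. Adjacent windows at or over 78%, next to either kind, had a pooled level of 84.4% (84.4 to 84.5), and all other windows 86.5%. Low methylation around broad windows thus extended over several windows and did not end at the window's edge.

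**Figure D4:**
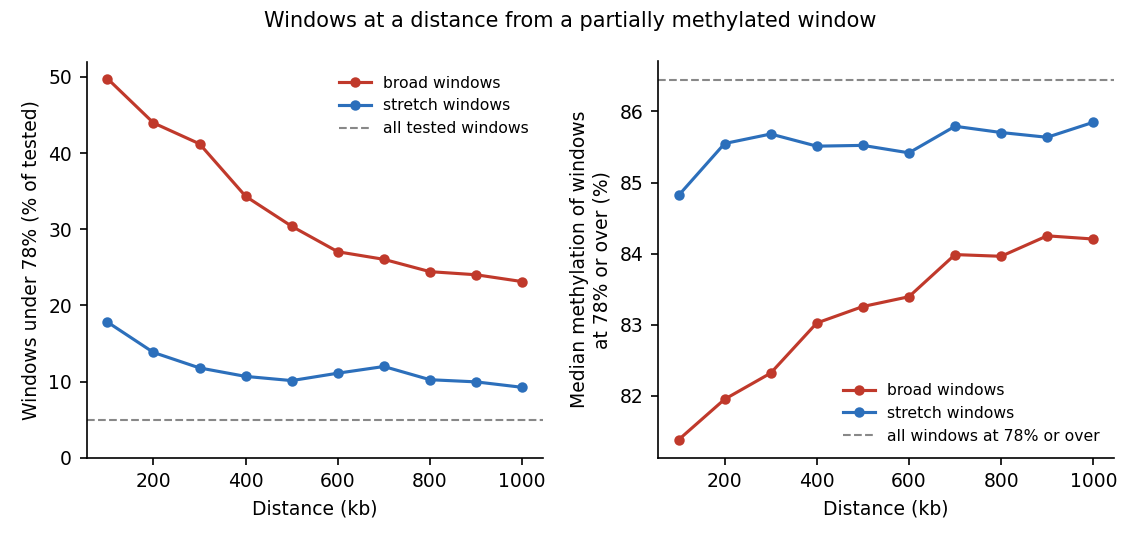
Left, the percentage of tested windows under 78% (y axis) by distance from a broad or stretch window (x axis, kb), with the 5.01% of all tested windows as a dashed line. Right, the median methylation in percent of windows at 78% or over at the same distances, with the median of all such windows dashed; next to broad windows the first value is 49.8% and the second 81.4%, and both move towards the dashed lines with distance.

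The windows formed 856 runs of adjacent windows, of which 684 were a window on its own. Broad windows stood in long runs: 162 of 300 (54.0%) belonged to runs of at least 3 windows and 110 (36.7%) to runs of at least 5, against 14.5% and 4.85% of stretch windows. Of the 23 runs of at least 5 windows, 16 consisted mainly of broad windows. By chromosome, 185 of 1345 tested windows of chromosome 7 (13.8%) and 82 of 915 of chromosome 17 (8.96%) were partially methylated, and the lowest share was 2.31% on chromosome 16. Chromosome 7 held 89 of the 300 broad windows. In the first 1 Mb from the first listed CpG of the autosomes, 20 of 195 windows (10.3%) were partially methylated. The share was 7.91% of 556 windows in the first 3 Mb and 7.67% of 587 in the last 3 Mb.

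Genes near the runs were read from the RefSeq order of genes, as the protein-coding genes between the nearest promoters that could be placed on either side. The longest run had 13 windows, chr17:38200001-39500000, of which 12 were broad, and a pooled level of 74.2% (73.3 to 75.1). It lies between H2-M3, a class Ib major histocompatibility gene, and Crisp2, which encodes a sperm protein. Of the 57 genes between these, 37 are Olfr genes, the odorant receptors of the nose, and 15 Esp genes, which encode secreted peptides sensed by the vomeronasal organ. Its windows were at 76.3%, 72.8%, 75.5%, 75.7%, 73.0%, 76.4%, 71.3%, 72.7%, 72.8%, 71.8%, 71.1%, 77.1% and 77.3% in order, from 505 to 907 reads each. They showed no single low window, and stretches covered 0.258 kb of the run. The 5 windows before it were at 80.4% to 83.2% and the 5 after it at 73.0% to 78.2%, so the low level went on beyond a window just over the limit.

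The next run, chr3:90700001-91700000, had 10 windows, all broad, with a pooled level of 75.8% (74.8 to 76.9) and a range of 73.5% to 77.9%. It lies between S100a13 and S100a11, genes of calcium-binding proteins, among 66 genes that include 21 Lce and 14 Sprr genes, which encode proteins of the cornified envelope of the skin. Its borders were sharper: none of the 15 windows on either side was under the limit, and the nearest 5 were at 79.8% to 84.4% before and 81.2% to 86.1% after it, where the lowest of these after it had 165 reads and was not among the tested windows.

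The third run, chr7:69300001-70100000, had 8 windows, 4 of them broad, at 67.6% to 77.4%. The placed promoters of Ndn and of Peg12, another imprinted gene with paternal activity, lie in it, and stretches covered 10.4 kb. Over the 300 bases of each promoter sequence, Ndn had 9.09% of 88 reads methylated and Peg12 1.79% of 56. Runs of 7 windows (chr7:67200001-67900000, 73.0%) and 5 windows (chr7:68000001-68500000, 75.2%) lay before it, between Snrpn and Ndn. Together the 3 runs hold 20 windows of the DNA around this group of imprinted genes, 15 of them broad.

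**Figure D5:**
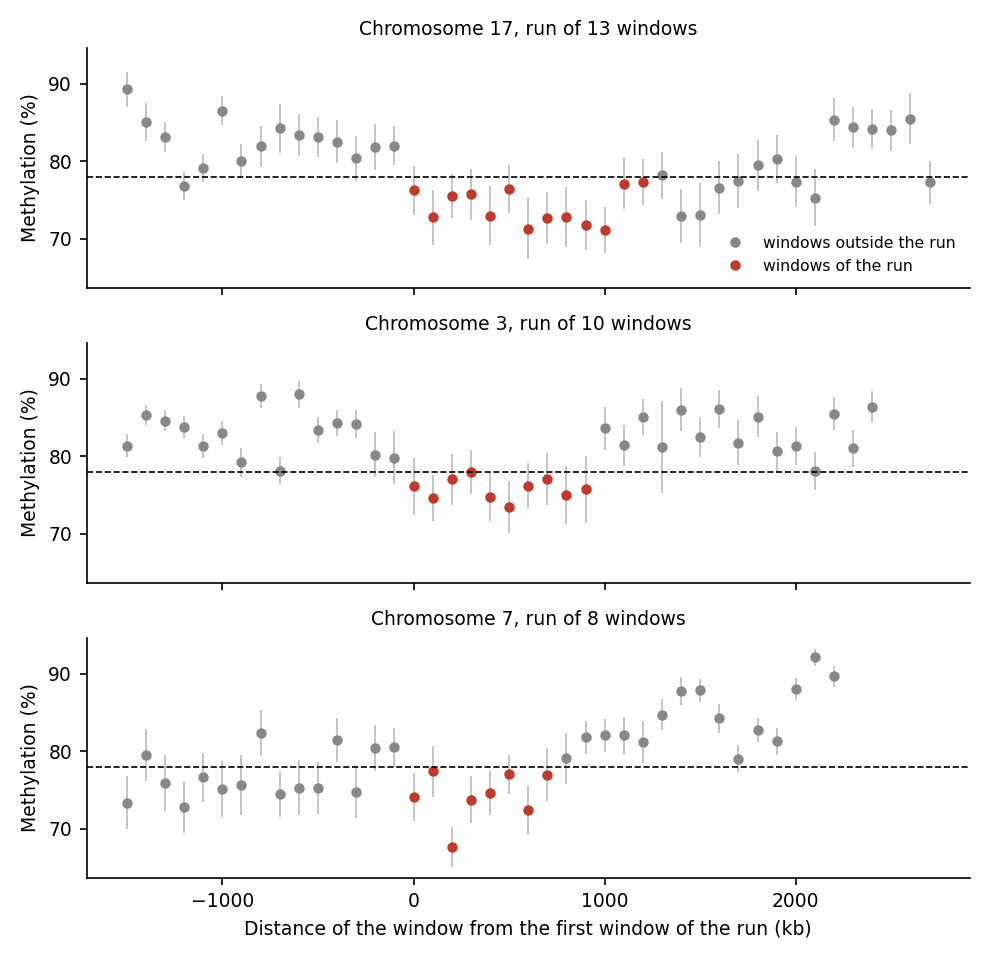
Points give the methylation level in percent of CpG-sparse CpGs in each 100 kb window along the 3 longest runs and 15 windows on each side, by distance in kb from the first window of the run, with bars of the 95% binomial interval (normal approximation) and a dashed line at 78%. The windows of the runs lie between 67.6% and 77.9%; in the surroundings, 8 of 30 windows of the run on chromosome 17, 0 of 30 on chromosome 3 and 10 of 30 on chromosome 7 are under the line.

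There were 9 runs of 7 windows. On chromosome 4 a pair of them, chr4:112300001-113000000 (73.9%) and chr4:113100001-113800000 (73.9%), is separated by 1 window and lies in a bracket of 15 genes with 11 Skint genes, which are named for their role in selecting and keeping T cells of the skin. The run chr7:34000001-34700000 (74.2%) lies where 35 of 36 genes are Scgb genes, which encode secretoglobins, small secreted proteins. The run chr5:146200001-146900000 (74.9%) lies beside 8 Cyp genes, cytochrome P450 enzymes, among 12. The run chr7:48900001-49600000 (73.9%) lies among 7 genes, of which 4 are Vmn genes, the pheromone receptors of the vomeronasal organ. The run chr1:119400001-120100000 (74.7%), all broad, has a single coding gene in its bracket, so long runs also occurred where genes are few. A run on chromosome 18 had a lower level, 62.4%, with 48.5 kb in stretches. The run chr10:79600001-80300000 (74.7%) was of the other kind: none of its 7 windows was broad, it held 64.2 kb in stretches, a median of 1723 listed CpGs per window and 27 placed promoters.

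Over all windows, broad windows had a bracket made up mainly of 1 gene family more often than others. A window counted as lying in a family cluster where its bracket held at least 5 coding genes and at least 50% of them shared a symbol stem. This was so for 153 of 281 broad windows with a bracket (54.4%, 48.6 to 60.2), 9.34% of stretch windows and 5.34% of other windows. With 200 to under 400 listed CpGs the shares were 58.0% of 226 broad and 9.61% of 7097 other windows. The families with most broad windows were Vmn with 46, Olfr with 42, Skint with 15, Scgb with 12, Cyp with 10 and Tas, taste receptors, with 7. The families differed among themselves: 10.5% of 401 Olfr, 16.1% of 62 Cyp, 25.7% of 179 Vmn, 33.3% of 45 Skint and 63.2% of 19 Scgb cluster windows were broad, where 1.27% of all tested windows were. These shares are given only for families with at least 10 broad windows, so they do not describe family clusters in general. Among other windows, 45 lay in Prl, 42 in Serpinb, 33 in Amy and 32 in Zfp clusters. None of these families was among those with most broad windows, ranked down to Pate with 3. Windows of a cluster are neighbours and do not count as independent. A bracket also reaches beyond the window, so it names the genes around it and not genes shown to lie in it. Where few promoters could be placed, as in broad windows, brackets can be longer and reach 5 genes more easily. The part of this in the shares was not tested.

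Few promoters could be placed in broad windows. Of 293 broad windows on chromosomes with placed promoters 5.80% held at least 1, against 73.3% of 862 stretch and 29.1% of other windows. The pooled promoter level was 17.7% in broad, 5.01% in stretch and 5.69% in other windows, over 43, 1411 and 10559 genes. The broad value rested on 1 promoter, that of Gm33862, a predicted gene, with 918 reads at 77.3%, and without it the broad windows had 6.59%. Under 20% were 79.1% of promoters in broad, 86.4% in stretch and 81.3% in other windows. The broad share includes 4 windows of Hox genes, rich in stretches, with 8, 9, 4 and 1 of the 43 genes. There only Hoxa10 (24.0%) and Gm15050 (28.6%) were at 20% or over. In the remaining broad windows Rnf212, Nlrp4c, Hcst, Nphs1, Gm51600, Gm33862 and Gm38744 were, from 42.1% to 95.8%. The broad share under 20% thus rests in large part on the Hox windows. Promoters need at least 6 CGs to be placed, so promoters poor in CpGs, as receptor genes often have, are not part of these values.

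Of the 10 lowest windows, 6 held a placed promoter of a Hox, Zic or Tfap2 gene, transcription factors of development. First came chr2:74500001-74600000 at 27.3% of 2340 reads (638 methylated), where the promoters of Hoxd13, Hoxd12, Hoxd11, Hoxd10, Hoxd9, Hoxd8 and Hoxd3 could be placed and 45.6 kb lay in stretches. These 7 promoters ranged from 0.746% at Hoxd3 to 18.8% at Hoxd8 over their 300 bases. The second was chr9:91200001-91300000 at 32.0% of 1758 reads, with Zic1, a zinc finger factor of the cerebellum, and 23.3 kb in stretches. The window of Hoxc4, chr15:102800001-102900000, was at 40.1%, that of Hoxa2, Hoxa3, Hoxa5, Hoxa7, Hoxa10 and Hoxa11, chr6:52100001-52200000, at 40.3% with 37.7 kb, and that of Hoxb4, chr11:96100001-96200000, at 47.4%. The window of Tfap2b, an AP-2 factor, chr1:19200001-19300000, was at 46.8% with 9.18 kb. The remaining 4 of the 10 lowest were chr15:102700001-102800000 at 47.1%, chr12:50400001-50500000 at 48.0%, chr13:83800001-83900000 at 48.8% and chr13:78300001-78400000 at 49.3%.

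Hox genes set position along the body axis, and 4 of the 10 lowest windows held a placed Hox promoter. The window chr15:102700001-102800000 adjoins that of Hoxc4 in a run of 5 windows whose bracket holds 9 Hoxc genes. In the Hoxd window the DNA outside padded stretches was at 64.0% (58.7 to 69.03), the lowest of all, but rested on 328 reads. By the rule above the windows of Hoxd13, Hoxc4, Hoxa2 and Hoxb4 count as broad although 24.7 to 45.6 kb of each lay in stretches. The next lowest outside stretches were chr4:88900001-89000000 at 64.2%, with Cdkn2a and Cdkn2b, inhibitors of the cell cycle, then chr6:114500001-114600000 at 64.2%, chr16:3200001-3300000 at 64.5% and chr3:3000001-3100000 at 66.0%. The last of these had 5.46 reads per CpG and the one before it 5.53, where the median of other windows was 2.99. Broad windows with no stretch that had the lowest level were chr7:23600001-23700000 at 68.5%, chr7:24300001-24400000 at 69.9% and chr7:24400001-24500000 at 70.02%. The fifth window by length in stretches, after the Hox windows, was chr17:86000001-86100000 with 24.4 kb, a level of 54.6% and the promoter of Six2, a homeodomain factor of the kidney.

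Of 12013 genes with a placed promoter 1454 (12.1%) lay in partially methylated windows, and this share is the measure for gene families. Among transcription factors of development, 15 of 16 Hox, 5 of 6 Pax, 6 of 10 Nkx, 3 of 5 Tbx, 5 of 8 Pou, 10 of 21 Fox, 3 of 8 Sox, 2 of 6 Lhx, 1 of 3 Irx, 2 of 3 sine oculis homeodomain (Six2, Six6) and 2 of 2 Zic genes did. Of 28 genes for histones, which are transcribed in dividing cells from clusters, 24 lay in such windows (85.7%), 0 of them in broad ones. Runs of 6 windows on chr13:23300001-23900000 (63.6%) and 4 windows on chr13:21800001-22200000 (61.1%) hold many of these histone genes. Among signalling genes, 3 of 12 Wnt and 6 of 11 Fgf genes lay in them. Of 3 further groups, 34 of 205 Zfp zinc finger genes (16.6%), 5 of 25 proteasome genes (20%) and 4 of 52 genes of the mitochondrial ribosome (7.69%) did. These 3 shares lay on both sides of the 12.1% of all placed genes, and their differences from it were not tested. Genes of a cluster share a window, so the counts are of genes and not of independent regions.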

How the data were processed

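The sperm bisulfite library was analysed. The authors deposited raw counts per CpG, of all and of methylated reads (per the file headers), with no normalization. Bowtie and mm9 are named per the submitters' processing notes. For bisulfite settings, duplicates and conversion: not given in the sources used here. Whether positions count from 0 or 1 is not stated, so each may be off by 1 bp.

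The members, lists and comparisons were chosen with earlier results of these data known. Levels are methylated over all reads. CpGs without reads are not listed, so CpG numbers are lower bounds. Named windows are the 10 lowest, the 5 longest runs (and all runs tied with these), the 5 lowest outside padded stretches, the 5 with most and 3 with least length in stretches, the 5 with the largest share of reads on CpGs above 19, and 3 on each side of the limit. Other windows, runs and genes were named after their values were seen. The division into broad and stretch windows, its padding of 1 kb and its 5 kb segments, the classes of CpG number and reads, the gene family patterns, the cluster rule, the settings for placing promoters and the values without single windows or promoters were also chosen after seeing values.

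Tested on simulated data, 20 of 20 broad windows among 582 on chromosome 19 were recovered and 0 of 40 windows with seeded stretches were called broad. Without the segment step 20 of these 40 were, since low stretches in CpG-sparse DNA were called only in part. These counts hold only for the levels that were seeded. The real broad windows lay close to the limit, with a median level of 75.4% and an upper quartile of 76.8%. How many windows that close to the limit would be recovered is not shown by the simulation.

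A RefSeq promoter (250 bases before to 50 after the start, GRCm38.p6, at least 6 CGs) was placed where at least 85% of its CpGs were listed at its spacing at a single place: 13875 of 17846 searched, of which 4 out of order were dropped. Genome coordinates were not converted. Promoters on chromosome 18 were not used here.

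Alternatives changed the read minimum, level limit, density limit, read limit, window position and size, averaging, stretch calling and padding. Python 3.11.15, numpy 2.4.6, pandas 2.3.3, scipy 1.17.1 and numba 0.67.0 were used. Medians have exact order-statistic intervals at 95%.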

Additional observations from a re-analysis of the deposited data

How the results depend on the processing

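No paired analysis was possible because there is 1 bisulfite library, and no replicate could be left out. Of 73 alternative values 24 stayed within the spread set for them, 48 moved and 1 changed direction. The ratio of coverage between partially methylated and other windows was 1.03 and fell to 0.946 with at most 2 listed CpGs within 100 bp, which also leaves fewer CpGs per window. It was 1.04 with a limit of 75%, 1.03 (1.032) in windows of 50 kb and 1.02 for the mean over CpGs. The set itself depended on the limits, with 530 windows under 75%, 591 with at most 2 listed CpGs and 3114 windows of 50 kb, against 1187. Of the 591, 459 (77.7%) belonged to the 1187. The 300 broad windows became 37 with at least 1000 reads per window, a minimum that most windows poor in CpGs do not reach. They became 92 under 75%, 591 in windows of 50 kb and 468 with neither padding nor the segment step, while the segment step alone changed 328 to 300. With at least 1000 reads the median was 1109 (1108.5) listed CpGs and 6.29 kb in stretches, 34.5% had an adjacent member, the level outside stretches was 80.1% and that of CpG-dense CpGs 22.5%. Under 75% these were 928 CpGs, 6.49 kb (6.485), 35.8%, 78.1% and 18.4%. With at most 2 listed CpGs they were 322 CpGs, 0 kb, 57.0%, 76.0% and 42.6%. Among windows chosen on these most isolated CpGs, the medians of CpGs and of kb in stretches thus showed no excess. Stretches still covered 3.22% of their length, against 1.07% in the other windows. In windows of 50 kb they were 484 (483.5) CpGs, 2.35 kb, 34.7%, 79.5% and 20.8%. For the mean over CpGs 48.3% had an adjacent member, and the levels were 77.9% and 22.6%. Without a limit on reads per CpG the levels were 60.2% and 34.9%, since CpGs of very high read number then enter. Windows shifted by 50 kb gave 22.8% for CpG-dense CpGs. Stretches called from 3 reads gave 5.98 kb and 82.2% outside them, and padding by 1 kb or 5 kb gave 82.5% and 82.8%. Adjacent windows over the limit were at 83.2% (under 75%), 83.9% (at most 2 listed CpGs), 84.5% (no read limit), 84.6% (shifted), 85.4% (50 kb) and 84.2% (mean over CpGs). The held-out level was 76.0% with odd and even exchanged and 79.3% with 10 kb segments, nearer to other windows. For changes with no cause named the cause was not tested. A depth of 3 reads per CpG does not resolve single CpGs, and windows with few reads near 78% cannot be assigned firmly.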
